A study of Menidia menidia with 24 samples.

Results

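Larvae of the Atlantic silverside, a coastal forage fish, were compared by the treatment of their parents within the low oxygen, high CO2 rearing treatment called HypOA. The members were 12 of the 24 larvae sequenced, chosen by their labels alone: 6 CH larvae (control parents, HypOA rearing) and 6 HH larvae (HypOA parents, HypOA rearing). Every larva was wild type, was the offspring of wild-caught adults, and was homogenised whole at 19 days post-fertilisation (dpf). HypOA rearing was 35% dissolved oxygen and 2500 µatm pCO2 at 20°C per the labels, and both groups received it from the embryo onwards, so the labels of CH and HH larvae differ in the parental treatment alone. The study's methods give somewhat different levels for the same tanks. The other 12 larvae, reared at 100% dissolved oxygen and 600 µatm pCO2, were the offspring of control parents (CC, 6 larvae) or of HypOA parents (HC, 6 larvae), and they serve here to show the same parental comparison without HypOA rearing.

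The HypOA parents were exposed at night before spawning and the control parents were not. The sexes of each treatment had a tank each, and several males and females of a treatment gave the gametes that were fertilised in vitro apart from those of the other treatment. The parental treatment therefore cannot be told apart from the tanks or from the particular adults that spawned, whose females differed in body size by the study's records, with smaller ones in the HypOA treatment. By the study's methods, larvae of a group were taken in pairs from shared rearing containers. Which of them had a container in common is not in the labels, so every test here treats the 6 larvae of a group as independent, and its p-values do not allow for that sharing. In whole larvae, fewer cells of a type and less RNA per cell cannot be told apart. By the study's records, larvae of HypOA parents grew more slowly after hatching, averaged over both rearings. HH and CH larvae did not differ significantly in that growth. The part of body size in the differences described here was not tested.

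Hypoxia and CO2 reach fish together in productive coastal water, where respiration removes oxygen and releases CO2. Fish exposed to low oxygen commonly save energy by reducing protein synthesis, digestion and growth, raise haemoglobin and glycolysis, and regulate acid-base balance by moving ions across the gills and skin. A parental environment can reach offspring through the egg's RNA, hormones and yolk, or through epigenetic marks in the gametes, and whether it alters the response of offspring to the same stressor is the question that the comparison of HH with CH larvae addresses.

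Counted reads per larva ranged from 12136995 to 15294834 in HH and from 11894042 to 13194006 in CH (n=6 each; exact permutation test, two-sided, p=0.0368, Benjamini-Hochberg adjusted p=0.156 over 6 library measures). One library, CH 3, stood apart, with 22.99% of its reads on no annotated feature and 7.88% placed at several sites, against at most 21.4% and 5.26% in the other CH larvae. Results that move without it are given below with that value. Whole larvae should hold many cell types, and the markers of red blood cells, exocrine pancreas, skeletal muscle, leukocytes, neurons and cartilage were detected in both groups. The summed level of each marker list overlapped between CH and HH larvae, and none of their transcripts passed the test below.

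Parental treatment separated the larvae on a small share of their variation. The split by parental treatment held 15.2% of the variation in expression among the 12 larvae over the 17262 transcripts tested. The test was a permutational multivariate analysis of variance on Manhattan distances of log2 CPM (R2=0.152, exact over all splits of the larvae, p=0.0195). CPM is a transcript's count scaled to a common library size. A random split of the larvae also has an R2 above 0, so this share is not the effect of parental treatment alone. The test can also respond to unequal spread within the groups, which is described below, and that part was not tested. The first principal coordinate held 23.8% of the variation and did not separate the groups (exact permutation test, p=0.374). On the second coordinate, which held 16.4%, every HH larva lay below every CH larva (means -1739±1006 and 1739±1389, n=6 each; exact permutation test, p=0.00216, the smallest this design can give, adjusted p=0.00649 over 3 coordinates). The exact test missed the threshold without HH 3 (p=0.0519) or without HH 4 (p=0.0584), with R2 values of 0.150 and 0.146, and without CH 3 the R2 was 0.180 (p=0.00433).

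**Figure D1:**
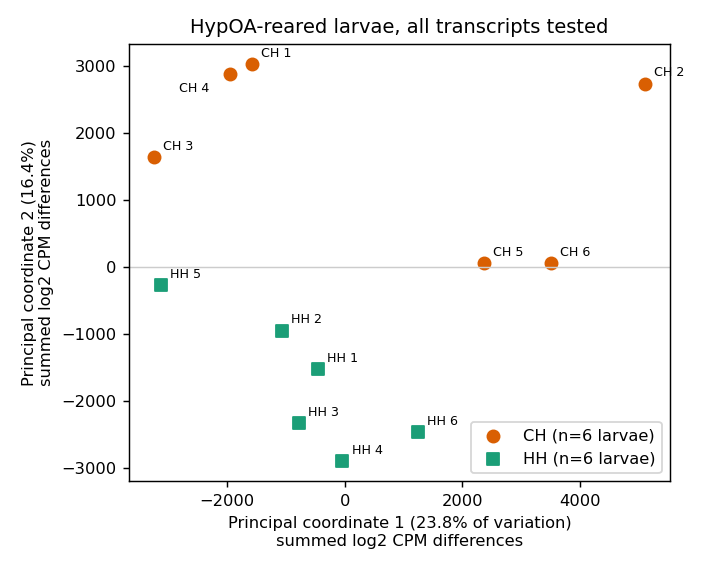
Principal coordinates 1 and 2 of the 12 HypOA-reared larvae, from Manhattan distances of log2 CPM over all transcripts tested, with 1 point per larva (circles CH, squares HH). The 6 HH larvae lie below 0 on coordinate 2 and the 6 CH larvae lie above 0, CH 5 and CH 6 by the least (63.1 and 59.1), while the groups overlap on coordinate 1.

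HH larvae also resembled each other more. The mean distance between larvae was 6500.3 within HH (15 pairs) and 7880.1 within CH (15 pairs), against 7693 between a CH and an HH larva (36 pairs). CH 2 was the farthest from its own group, at a mean distance of 8420.5. The largest mean distance of any HH larva, 6942 for HH 6, was below the smallest of any CH larva, 7611 for CH 5.

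Differential expression between HH and CH larvae passed an FDR of 0.05 in 3 transcripts, 0.0174% of the 17262 tested (edgeR quasi-likelihood test). Among these differentially expressed transcripts (DETs), 1 was upregulated in HH larvae (ZER1, 0.00579% of those tested) and 2 were downregulated (WSB2 and mme05012, which has no symbol, 0.0116%). Both named DETs are known from mammals as substrate receptors of cullin-RING ubiquitin ligases, the complexes that choose proteins for destruction by the proteasome. Symbols were at hand only for transcripts that the study lists as responding in CH against CC. For any transcript with a symbol, a CH level apart from the CC level is therefore not independent of that choice.

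ZER1 (mme11111), which in mammals recognises proteins with an exposed glycine at their start, was expressed at 12, 13.2 and 15.2 CPM (lowest, median and highest) in the 6 HH larvae and at 5.17, 7.54 and 8.57 CPM in the 6 CH larvae. All HH larvae lay above all CH larvae. The difference was 0.89±0.15 on the log2 scale (± the standard error of the fit, as for every log2 difference here), a 1.86-fold higher mean, with an edgeR FDR of 0.0189. The control-reared groups were near the HH level, at means of 12 CPM in HC and 11.2 CPM in CC, so CH was the low group.

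WSB2 (mme01762), a WD-repeat protein with a SOCS box, was expressed at 17.2, 18.1 and 20.6 CPM in HH larvae and at 25.5, 28.5 and 34.2 CPM in CH larvae. All HH larvae lay below all CH larvae. The log2 difference was -0.62±0.11, a 1.54-fold higher mean in CH, with an edgeR FDR of 0.0189. The control-reared means were 23 CPM in HC and 20.3 CPM in CC, so CH was the high group.

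The transcript mme05012 was expressed at 22.9, 26.4 and 36.4 CPM in HH larvae and at 34.3, 88.7 and 107 CPM in CH larvae, and 1 CH larva fell within the HH range. Its log2 difference was -1.50±0.24, a 2.83-fold higher mean in CH, with an edgeR FDR of 0.0189. In control-reared larvae mme05012 was also lower with HypOA parents, with means of 39.0 CPM in HC and 73.9 CPM in CC (log2 difference -0.92±0.24, FDR=0.134).

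**Figure D2:**
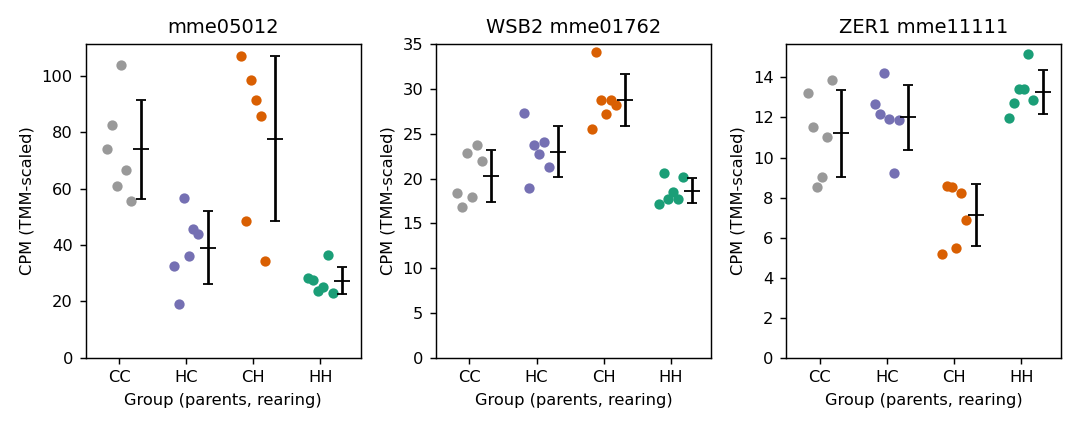
CPM of the 3 DETs in each of the 24 larvae, 1 point per larva, with the mean and s.d. of each group of 6 beside its points; axes start at 0. WSB2 is highest in CH (mean 28.8 CPM) and ZER1 lowest in CH (mean 7.14 CPM), while mme05012 is lower in both groups from HypOA parents (27.4 and 39.0 CPM) than in both from control parents (77.6 and 73.9 CPM).

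The count of DETs depended on few larvae, on the tool and on the samples fitted. It was 0 when the 12 larvae were fitted alone (smallest FDR 0.0826) and limma-voom called ZER1 and WSB2 but not mme05012. Without CH 1, HH 1, HH 3 or HH 4 no transcript passed, without CH 2 WSB2 did not pass, and without CH 3 the count was 6 and held all 3. DESeq2 called 216 transcripts (104 higher and 112 lower in HH), all with an unadjusted edgeR p under 0.05 and with edgeR FDR values up to 0.170.

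Below that threshold many small differences were counted. An unadjusted edgeR p under 0.05 was reached by 2493 transcripts (14.4%), 1211 higher (7.02%) and 1282 lower (7.43%) in HH. If no transcript differed and the larvae were independent, 863.1 would be counted on average. Larvae shared containers and transcripts are not independent of each other, so the excess over that number is a description and not a test. The FDR was under 0.1 in 7 transcripts (0.0406%) and under 0.2 in 763 (4.42%). All larvae of one group lay beyond all larvae of the other in 251 transcripts (1.45%), with HH above in 109 (0.631%) and below in 142 (0.823%). Over all transcripts tested, called or not, the median size of the HH-minus-CH difference was 0.18 on the log2 scale.

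The transcripts with a symbol that came next in the test are named with that limit: their FDR lay between 0.068 and 0.113, and none passed. The lower ones in HH included CCNY, cyclin Y, a membrane-bound cyclin, at 7.38, 9.02 and 11.3 CPM in HH larvae against 12.8, 15.5 and 17.1 CPM in CH larvae (log2 difference -0.71±0.14). SSBP2, which in mammals binds the LIM-domain-binding cofactors of transcription, was expressed at 25.7, 29.4 and 33.1 CPM in HH and at 35.2, 41.6 and 52.3 CPM in CH (-0.52±0.10). For both transcripts no larva of HH reached the CH range.

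RASF1, a scaffold protein of the Hippo pathway, had a log2 difference of -0.67±0.16 with no overlap between groups (HH 7.66 to 10.2 CPM, CH 12 to 17.3 CPM). GLT17, of the glycosyltransferase family that starts O-linked sugar chains, had a difference of -0.73±0.15 and overlapped (HH 14.4 to 28.3 CPM, CH 25.2 to 40.1 CPM). The remaining ones of the 6 lower transcripts, STX3 and RU17, are described with their gene groups.

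On the higher side was SIN3A, the scaffold of a histone deacetylase corepressor, at 47.1, 49.3 and 55.5 CPM in HH larvae against 29.6, 34.7 and 42.3 CPM in CH larvae (log2 difference 0.51±0.11). MYPR, the proteolipid protein of myelin, was expressed at 9.71, 13.1 and 17 CPM in HH and at 5.84, 7.57 and 9.94 CPM in CH (0.83±0.18). SIN3A larvae did not overlap, and the MYPR ranges overlapped.

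TBC8B, a Rab GTPase-activating protein, did not overlap either (HH 20.6 to 24.8 CPM, CH 14.4 to 18.7 CPM, log2 difference 0.47±0.12). Nor did MYORG, a glycosidase first known from muscle (HH 5.18 to 12.3 CPM, CH 3.76 to 5.13 CPM, 0.81±0.20). UB2R2, a ubiquitin-conjugating enzyme that works with cullin-RING ligases, ranged from 4.57 to 8.77 CPM in HH and from 2.70 to 5.27 CPM in CH (0.85±0.20). The ranges of UB2R2 overlapped.

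Transcripts without a symbol were among the leading differences too, and are named by their identifier. The transcript mme18287 was expressed at 2.23, 3.70 and 6.24 CPM in HH and at 0.540, 1.41 and 2.46 CPM in CH (log2 difference 1.55±0.32, edgeR FDR=0.106). The transcript mme05560 was expressed at 21.5, 25.6 and 29.2 CPM in HH and at 15.5, 17.2 and 22 CPM in CH (0.52±0.10, FDR=0.068). In control-reared larvae mme05560 was also higher with HypOA parents, with every HC larva above every CC larva (log2 difference 0.33). The transcript mme10216 was lower in HH without overlap, at 14.1 to 16.2 CPM against 20.2 to 24.4 CPM (-0.53±0.10, FDR=0.0802).

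The parental comparison in control-reared larvae (HC against CC), which shares no larva with HH against CH, called 0 transcripts by edgeR (0%) and 0 by limma-voom, against 137 by DESeq2. An unadjusted edgeR p under 0.05 was reached there by 2275 transcripts (13.2%), and 129 (0.747%) did not overlap. Across the 17262 transcripts, which are not independent, the log2 differences of both parental comparisons were weakly related (Pearson's r=0.165, Spearman's rho=0.150). The direction was the same in 55.1% of all transcripts, in 65.2% of the 2493 with an unadjusted p under 0.05 in HH against CH, and in 72.9% of the 251 without overlap.

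The test of whether the parental difference itself differed between rearings also called 0 transcripts by edgeR (0%), with 1845 (10.7%) at an unadjusted p under 0.05, 0 by limma-voom and 4 by DESeq2. WSB2 had the smallest FDR of that test, 0.210, with a parental difference of -0.62 under HypOA rearing and of 0.18 under control rearing. ZER1 had differences of 0.89 and 0.10 (interaction 0.79, edgeR FDR=0.346). SSBP2 had differences of -0.52 and 0.22 (interaction -0.74, edgeR FDR=0.258). For these genes a difference between rearings was therefore not shown at the FDR used.

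Gene groups were described over 20 lists with 374 transcripts, all of them tested. The lists were chosen with earlier results of these data known, so a list that stands out is a description and not a test. Their symbols were taken from 1208 transcripts that the study lists as responding in CH against CC, so the same CH larvae chose them and a difference of HH from CH towards the CC level is not independent of that choice. Of these 1208, the 664 that were higher in CH than in CC had a median HH-minus-CH difference of -0.11, with 117 (17.6%) lower and 5 higher in HH at an unadjusted p under 0.05. The 544 that were lower in CH than in CC had a median of 0.24, with 131 (24.1%) higher and 2 lower. Each list is therefore read against both of these values as well as against the 7.02% higher and 7.43% lower of all transcripts.

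**Figure D3:**
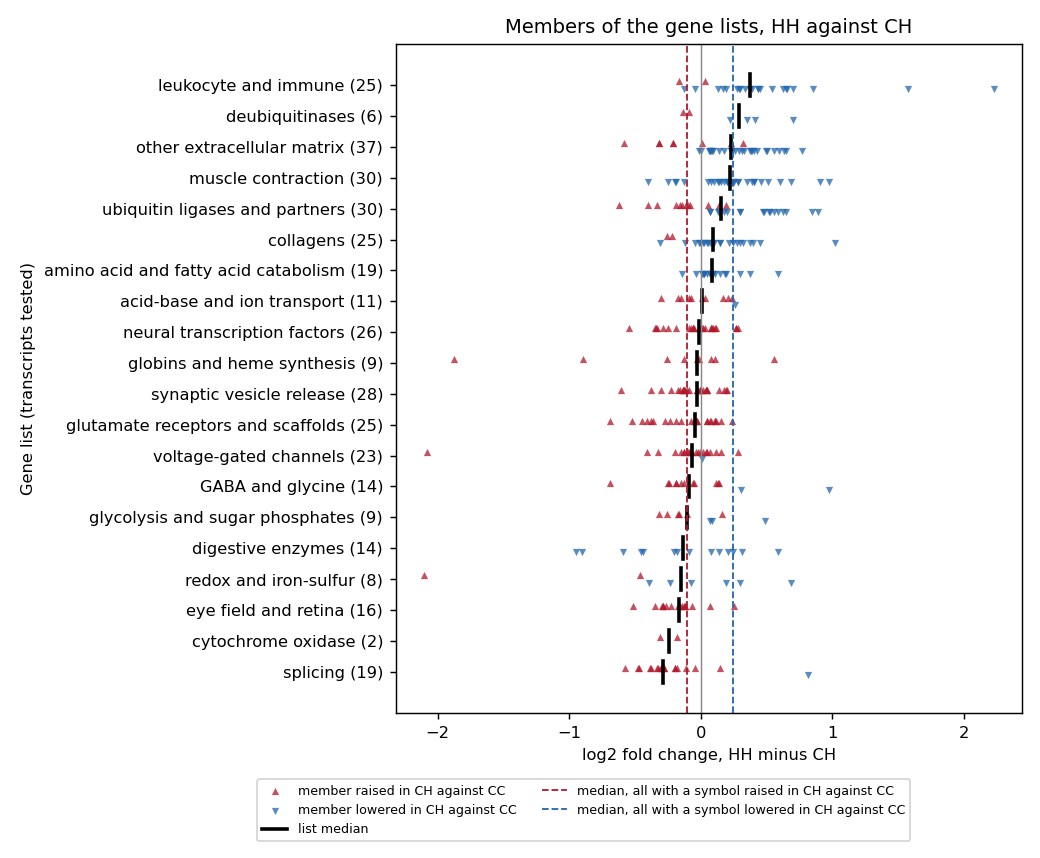
HH-minus-CH log2 fold change of each member of the 20 gene lists, 1 marker per transcript, pointing up for members higher in CH than in CC and down for members lower in CH than in CC, with the list median as a black bar. Dashed lines give the medians of all such transcripts with a symbol (-0.11 and 0.24); the splicing list has the lowest median (-0.29) and the leukocyte and immune list the highest (0.38).

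Ubiquitin ligases and their partners held both named DETs. The list was chosen with earlier results of these data known, so its values describe it and are not independent of those DETs. Of 30 transcripts, 11 (36.7%) were higher and 2 (6.67%) lower in HH at an unadjusted edgeR p under 0.05, and the median difference was 0.16. Among all transcripts tested, 7.02% were higher and 7.43% lower. Among those with a symbol that were lower in CH than in CC, 24.1% were higher. All 11 were among the 18 that were lower in CH than in CC, and both lower ones, WSB2 and the RING-finger protein RN122 (-0.40±0.15), were among the other 12. The mean log2 CPM over the list was 4.20 to 4.34 in HH larvae and 3.95 to 4.17 in CH larvae without overlap, and it averaged 4.22 in HC and 4.24 in CC.

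PELI2, a pellino ligase of Toll-like receptor and interleukin-1 signalling, averaged 14.7 CPM in HH and 9.56 CPM in CH without overlap (0.62±0.16, FDR=0.113). KLDC3, a substrate receptor of cullin-2 ligases like ZER1, averaged 8.40 and 5.68 CPM (0.56±0.16, FDR=0.136). UBE4B, which extends ubiquitin chains, averaged 7.65 and 5.47 CPM (0.48±0.17). These means were 13.7, 7.54 and 8.55 CPM in HC larvae, each nearer to HH than to CH.

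The 6 deubiquitinases, enzymes that remove ubiquitin, had a median difference of 0.29, with 2 (33.3%) higher and 0 lower at an unadjusted p under 0.05. Of these 6, 4 were lower in CH than in CC, and 24.1% of all such transcripts with a symbol were higher in HH. TNAP3, known as A20, which restrains NF-κB signalling, was expressed at 13.5, 14.3 and 18.1 CPM in HH larvae and at 5.71, 9.15 and 11.6 CPM in CH larvae. Every HH larva lay above every CH larva (0.70±0.18, edgeR FDR=0.113). UBP13 averaged 88.8 CPM in HH and 66.8 CPM in CH (0.41±0.16, FDR=0.242), while OTU7A had the smallest p among the lower ones at -0.13±0.12 (FDR=0.643).

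Splicing transcripts had the lowest median of the 20 lists. Of 19 transcripts, 12 (63.2%) were lower at an unadjusted edgeR p under 0.05, against 17.6% of all transcripts with a symbol that were higher in CH than in CC, and 1 was higher. The median difference was -0.29, and it stayed between -0.32 and -0.24 when each larva was left out in turn. No member passed an FDR of 0.05. In 6 of the 19 members every HH larva lay below every CH larva, as in 0.823% of all transcripts tested. That share was not counted for transcripts with a symbol that were higher in CH than in CC. The mean log2 CPM over the list overlapped between groups, at 5.86 to 6.05 in HH larvae and 6.00 to 6.36 in CH larvae.

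RU17, a protein of the U1 particle that marks the start of introns, was expressed at 213, 228 and 248 CPM in HH larvae and at 261, 322 and 345 CPM in CH larvae. These larvae did not overlap (log2 difference -0.47±0.11, edgeR FDR=0.113). The control-reared means were 230 CPM in HC and 241 CPM in CC, so the HH larvae were at the level of the control-reared larvae. CH was the high group, which is not independent of the choice of symbols by CH against CC. RU17 had a parental difference of only -0.06 under control rearing (interaction -0.40, edgeR FDR=0.380).

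SF3B1, which recognises the branch point within introns as part of the U2 particle, is assigned to a pair of transcripts that differed in opposite directions. The abundant one, mme19618, averaged 185 CPM in HH and 257 CPM in CH without overlap (-0.48±0.11, FDR=0.113), with 201 CPM in HC. The scarce one, mme19222, was expressed at 5.47, 7.47 and 15 CPM in HH and at 3.59, 4.57 and 6.69 CPM in CH (0.82±0.22, FDR=0.113). How reads were shared between transcripts with the same symbol is not stated, so the values of each are uncertain to that extent.

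CLK4, a kinase of the serine- and arginine-rich (SR) splicing factors, averaged 230 CPM in HH and 301 CPM in CH (-0.39±0.11). SRS11, an SR protein, averaged 169 and 205 CPM (-0.28±0.09), and SR140, a U2-associated protein, averaged 125 and 153 CPM (-0.30±0.11). FL2D, known in mammals as WTAP and a subunit of the RNA m6A methyltransferase, averaged 88.0 and 107 CPM (-0.28±0.07). All larvae of HH lay below all larvae of CH for these 4 genes, and the HC means were 234, 162, 118 and 89.0 CPM, near the HH means.

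**Figure D4:**
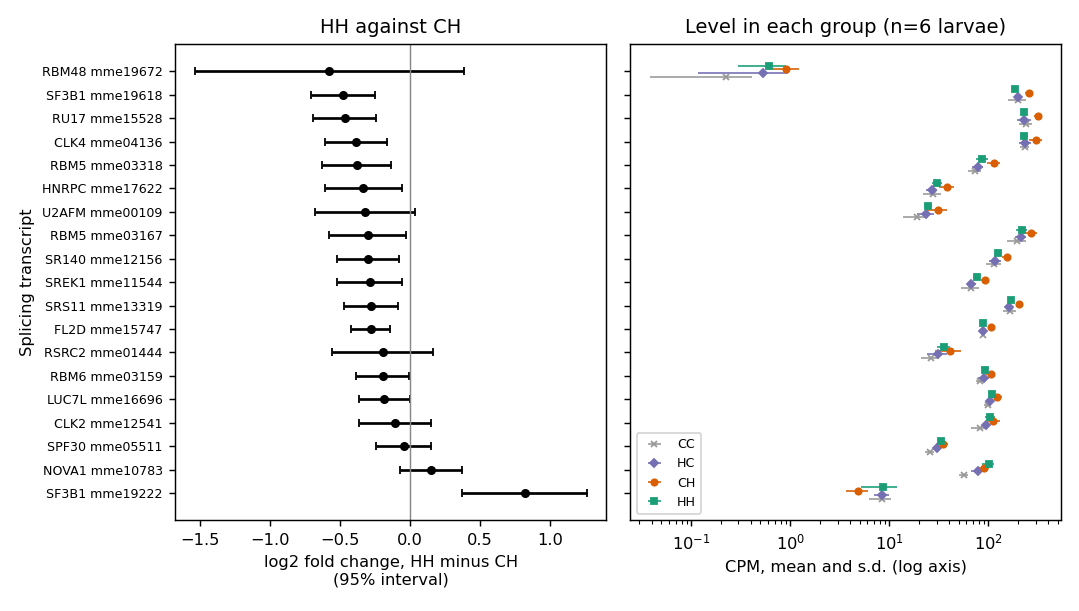
The 19 splicing transcripts, with the HH-minus-CH log2 fold change and its 95% interval on the left and the CPM of each group on a log axis on the right (mean and s.d., n=6 larvae). The CH mean is the highest of the 4 groups for most abundant members, such as RU17 (315 CPM against 228 to 241 CPM), and SF3B1 mme19222 and NOVA1 lie to the right of 0.

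The leukocyte and immune list had the highest median. Of 25 transcripts, 6 (24.0%) were higher in HH at an unadjusted edgeR p under 0.05 and 0 lower, and the median difference was 0.38, with 23 of the 25 lower in CH than in CC. That share lay next to the 24.1% of all transcripts with a symbol that were lower in CH than in CC, so the count does not set the list apart from them. The mean log2 CPM over the list was 2.80 to 3.28 in HH larvae and 2.28 to 2.73 in CH larvae without overlap, and averaged 3.32 in HC and 3.63 in CC. CXCR3, a chemokine receptor of lymphocytes, averaged 6.47 CPM in HH and 4.10 CPM in CH (0.66±0.23, FDR=0.203), and TRI25, a ligase of antiviral signalling that is also in the ubiquitin list, averaged 4.48 and 2.85 CPM (0.65±0.28, FDR=0.290). The 6 leukocyte markers summed to 34.6 to 68.8 CPM in HH larvae and to 33.3 to 44.2 CPM in CH larvae, with 1 of the 6 at an unadjusted p under 0.05 (C1QA, which was at 0 in CH 3), and the part of leukocyte number in these differences was not tested.

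Extracellular matrix transcripts other than collagens had a median difference of 0.23 over 37 members, with 3 (8.11%) higher in HH and 0 lower, and 29 of the 37 were lower in CH than in CC. These values are not above the median of 0.24 and the 24.1% of all transcripts with a symbol that were lower in CH. The 3 higher ones are basement membrane components or act at the cell surface. LAMB1, the laminin beta-1 chain, was expressed at 26.8, 33.0 and 36.4 CPM in HH larvae and at 16.6, 18.9 and 30.1 CPM in CH larvae, with overlap through CH 4 alone (0.65±0.15, FDR=0.113). NID1, nidogen-1, averaged 10.7 CPM in HH and 6.88 CPM in CH (0.64±0.22), and MMP15, a membrane-bound matrix metalloproteinase, 19.5 and 13.3 CPM (0.55±0.17), both without overlap. The 25 collagens had a median of 0.09 and none reached an unadjusted p under 0.05 in either direction. Under control rearing their median HC-minus-CC difference was -0.83, and 22 of the 25 reached that p. The CC larvae were not alike in this. The mean log2 CPM over the collagens was 7.27, 7.18 and 6.72 in CC 1, CC 2 and CC 4. It was 5.48 to 5.78 in the other CC larvae, within the 5.36 to 6.04 of the HC larvae. All transcripts with a symbol that were lower in CH had a median HC-minus-CC difference of -0.31, and the same CC larvae entered their choice. COAA1, collagen X of growing cartilage, had the largest collagen difference (1.02±0.53), which was 0.0080 without HH 4.

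Muscle contraction transcripts had a median difference of 0.22 over 30 members, all lower in CH than in CC, with 4 (13.3%) higher in HH and 0 lower, again not above the 0.24 and 24.1% of all such transcripts. RYR1 mme19877, a copy of the calcium release channel of the sarcoplasmic reticulum, averaged 87.3 CPM in HH and 54.3 CPM in CH (0.69±0.26, FDR=0.227). The other RYR1 transcript, mme10654, differed by 0.20±0.15. NEBU, nebulin, was scarce at 0.980, 1.34 and 1.62 CPM in HH and 0.417, 0.565 and 1.35 CPM in CH (0.91±0.33, FDR=0.213). The skeletal muscle markers summed to 1732 to 4783 CPM in HH larvae and to 1645 to 3709 CPM in CH larvae, with 2 of their 10 transcripts at an unadjusted p under 0.05, and the part of muscle mass in these differences was not tested.

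Neural lists differed little by parental treatment under HypOA rearing. The medians were -0.03 for 28 synaptic vesicle transcripts, -0.04 for 25 glutamate receptors and scaffolds, -0.09 for 14 GABA and glycine transcripts, -0.06 for 23 voltage-gated channels, -0.02 for 26 neural transcription factors and -0.16 for 16 eye and retina transcripts. In these 6 lists 15 transcripts were lower and 2 higher at an unadjusted edgeR p under 0.05. Of the 132 members, 129 were higher in CH than in CC. Among all transcripts with a symbol that were higher in CH than in CC, 17.6% were lower in HH at that p. The share of lower members was below this in each of the 6 lists, so the counts do not set these lists apart. The 8 neuron marker transcripts summed to 498 to 668 CPM in HH larvae and to 484 to 599.8 CPM in CH larvae. Under control rearing the HC-minus-CC medians of the 6 lists lay between 0.31 and 0.40. All transcripts with a symbol that were higher in CH than in CC had a median of 0.30 there. The same CC larvae entered the choice of these symbols, so those medians are not independent of it.

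The eye and retina list had 2 of 16 transcripts (12.5%) lower, against 17.6% of all transcripts with a symbol that were higher in CH than in CC. The lower members of smallest p in the vesicle, GABA and eye lists were STX3, GBRR3 and CABP5. STX3, the syntaxin of photoreceptor and bipolar cell ribbon synapses in mammals, was expressed at 12, 16.7 and 20.0 CPM in HH larvae and at 21.8, 25.4 and 29.5 CPM in CH larvae without overlap (-0.61±0.14, FDR=0.113). GBRR3, a rho subunit of the GABA receptor, was expressed at 7.63, 8.74 and 10.2 CPM in HH and at 11.8, 13.6 and 17.1 CPM in CH, also without overlap (-0.69±0.17, FDR=0.113). CABP5, a calcium-binding protein of bipolar cells, ranged from 8.37 to 16.9 CPM in HH and from 15.1 to 24.0 CPM in CH (-0.51±0.20, FDR=0.240). For STX3, GBRR3 and CABP5 the HC means were 18, 10.2 and 13.7 CPM, between the HH and CH means.

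S6A13, a GABA and taurine transporter of liver, kidney and brain coverings in mammals, was the opposite case, at 2.44, 3.17 and 5.06 CPM in HH and 1.09, 1.71 and 2.42 CPM in CH without overlap (0.98±0.29, FDR=0.148). GSG1L, an auxiliary subunit of AMPA receptors, ranged from 1.35 to 2.97 CPM in HH and from 2.59 to 3.92 CPM in CH (-0.69±0.24, FDR=0.192). SCN8A, a sodium channel, was higher at 53.1, 58.2 and 81.5 CPM in HH against 40.5, 51.6 and 54.5 CPM in CH (0.29±0.11, FDR=0.236). SHH, the sonic hedgehog signal, differed by -0.54±0.21 (FDR=0.233), with overlapping larvae. KCNH8, a potassium channel, had the largest fold of these lists (-2.08±0.65), which rested on CH 5 and was -0.15 without it.

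Transcripts of oxygen transport and energy use showed few parental differences under HypOA rearing. Over 9 globin and heme synthesis transcripts, all higher in CH than in CC, the median was -0.02. At an unadjusted p under 0.05, 1 (11.1%) was lower, against 17.6% of all such transcripts with a symbol. HBB, a beta globin, was expressed at 2.00, 4.43 and 7.56 CPM in HH larvae and at 1.09, 13.9 and 34.3 CPM in CH larvae (-1.87±0.55, FDR=0.141), where the CH larvae spanned the whole HH range. The beta globin HBBA is assigned to a pair of transcripts whose log2 differences had opposite signs, neither at an unadjusted p under 0.05. The abundant mme15343 had means of 36.1 CPM in HH and 67.2 CPM in CH (-0.90±0.61, FDR=0.508). The scarcer mme15342 had means of 12 and 8.18 CPM (0.56±0.53, FDR=0.660). How reads that match both transcripts were counted is not given, so the values of each are uncertain to that extent.

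Of 8 redox transcripts, 2 (25.0%) were higher and 3 (37.5%) lower at an unadjusted p under 0.05. Over all transcripts tested the shares were 7.02% and 7.43%. Both higher ones were among the 6 that were lower in CH than in CC, and 24.1% of all such transcripts with a symbol were higher in HH. The 2 members that were higher in CH than in CC were both lower in HH, as were 17.6% of all such transcripts. Of the 3 lower ones 1 was CP1A1, which stood at 626 CPM in CH 5 and at 14.4 to 55.9 CPM in the other CH larvae. PRDX5, a peroxiredoxin that removes peroxides, was expressed at 71.2, 82.5 and 91.9 CPM in HH larvae and at 95.6, 109 and 119 CPM in CH larvae without overlap (-0.39±0.11, FDR=0.127). With means of 170 CPM in HC and 162 CPM in CC, PRDX5 was lower in CH than in the control-reared groups, and HH was lower again, so it differed from RU17 and WSB2 in the order of the groups. NNTM, the mitochondrial transhydrogenase that makes NADPH, was expressed at 178, 225 and 352 CPM in HH and at 112, 151 and 220 CPM in CH (0.69±0.24, FDR=0.197). COX5A, a subunit of cytochrome c oxidase, averaged 171 and 211 CPM (-0.31±0.14, FDR=0.318).

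In the metabolic lists, 19 transcripts of amino acid and fatty acid catabolism had a median of 0.08, with 2 (10.5%) higher and 0 lower. Both were annotated as PYC, pyruvate carboxylase (0.58±0.19 and 0.30±0.11). All 19 were lower in CH than in CC, and 24.1% of all such transcripts with a symbol were higher in HH. The 9 glycolysis and sugar phosphate transcripts had a median of -0.11, with TKT, transketolase, lower (269 against 336 CPM, -0.32±0.12, FDR=0.214). In control-reared larvae TKT was higher with HypOA parents (0.35±0.12, edgeR FDR=0.210). None of the 14 digestive enzymes reached an unadjusted p under 0.05 in HH against CH. They were scarce there, with a mean log2 CPM over the list of -0.17 to 0.71 in HH larvae and -0.66 to 1.16 in CH larvae. At so few reads the comparison cannot show that these enzymes did not differ. Their median of -0.14 had no stable sign, at 0.01 without CH 4, 0.08 without CH 6 and 0.16 from means of log2 CPM with a prior count of 0.25. Under control rearing the median HC-minus-CC difference of these enzymes was -2.10, and 13 of the 14 reached that p. The groups overlapped, and CC 1 stood apart. The mean log2 CPM over the list was 6.39 in CC 1, 0.70 to 3.39 in the other CC larvae and 0.22 to 3.18 in HC larvae. The HC-minus-CC median without CC 1 was not worked out. All transcripts with a symbol that were lower in CH than in CC had a median HC-minus-CC difference of -0.31, and the same CC larvae entered their choice. The 11 acid-base and ion transport transcripts had a median of 0.01, with the chloride exchanger CLCN7 higher (0.26±0.12, FDR=0.307) and the bicarbonate transporter S4A10 lower (-0.30±0.14, FDR=0.328).

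The spread between larvae also differed between the groups. The variance of log2 CPM was lower in HH than in CH for 65.7% of the 17262 transcripts, and between 60.3% and 68.9% when each of the 12 larvae was left out. It was over 4 times larger in CH for 2892 transcripts and over 4 times larger in HH for 731. With so few larvae per group, ratios over 4 also arise by chance in either direction. The number expected was not worked out, so these counts are a description and not a test. HH larvae had lower variance for 15 of 19 splicing transcripts, 24 of 30 ubiquitin transcripts and 13 of 14 digestive enzymes. The digestive enzymes were scarce in both groups, so counting noise enters their variance (mean log2 CPM over the list 0.22 in HH and 0.23 in CH). Only 3 of 25 collagens and 5 of 23 voltage-gated channels varied less in HH.

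ADCY6, an adenylate cyclase, had the largest ratio of variance among transcripts with a symbol and a mean log2 CPM above 3, at 70.3 times more in CH, with 21.9 to 23.4 CPM in HH and 13.7 to 25.3 CPM in CH. VATO, a subunit of the vacuolar proton pump, had a ratio of 40.6, and GATM, the first enzyme of creatine synthesis, a ratio of 26.2 with 654 to 833 CPM in HH and 506 to 1761 CPM in CH. In the other direction CO4A1, collagen IV, varied 44.8 times more in HH (17.5 to 31.4 CPM, against 19.2 to 21.2 CPM in CH). TARG1 varied 52.3 times more and LAMA4, the laminin alpha-4 chain, 19.5 times more in HH. These genes were chosen for their ratios, which are given as a description without a test.

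**Figure D5:**
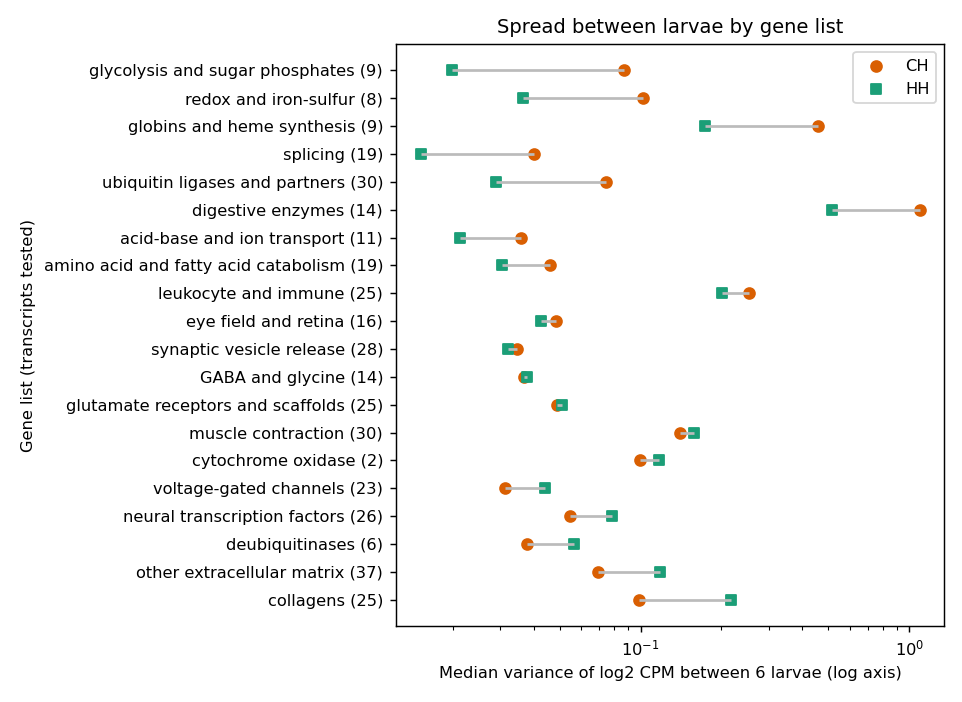
Median variance of log2 CPM between the 6 larvae of a group, over the transcripts of each gene list, on a log axis (circles CH, squares HH, joined by a line). Glycolysis, redox, globin, splicing and ubiquitin lists vary less in HH (0.015 against 0.040 for splicing), and collagens vary more in HH (0.218 against 0.098).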

How the data were processed

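RNA of whole larvae was sequenced as read pairs from a directional kit. The authors deposited 1 table of raw counts per larva, made with STAR 2.6.1d and HTSeq 0.11.1 per the submitters' processing notes, which also name Trimmomatic and edgeR 3.40.2, where the study's methods name Fastp for trimming. Reads were aligned to a published silverside genome per the study's methods. Its build name, and the strand setting, overlap rule and treatment of multi-mapped reads in that counting: not given in the sources used here. Reads on no feature, ambiguous reads and reads at several sites stood in 5 summary lines, which entered neither library sizes nor tests. The number of counted reads limits the precision of each value, and intervals and standard errors come from the fit.

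Entries of a gene were summed (20651 entries, 20210 genes), filterByExpr (minimum count 10, minimum total 15, by group) kept 17262, and TMM factors scaled the libraries. edgeR's quasi-likelihood model was fitted once to all 24 larvae, with group as the factor (common biological coefficient of variation 0.248), and HH against CH, HC against CC and their interaction were tested with Benjamini-Hochberg adjustment (R 4.3.3, edgeR 4.0.16, limma 3.58.1, DESeq2 1.42.0). Standard errors are the log2 fold change divided by the square root of F. CPM values are TMM-scaled, and log2 CPM has a prior count of 2. Single values per larva were compared by two-sided exact permutation tests. On simulated counts the fit recovered 85% of 2-fold and 99% of 4-fold changes for HH against CH (100 transcripts each, 17158 transcripts) and made 0 calls in unchanged data. The changed transcripts were drawn from the more highly expressed ones alone, and larvae were simulated as independent. These shares therefore do not measure recovery of scarce transcripts, of smaller changes or with shared containers.

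Symbols of 1208 transcripts came from the readable portion of the study's table of DETs, whose fold changes and p-values were not used. The symbol table supplied with the reference did not match the transcript identifiers. The 57 named transcripts were the DETs, the next 6 with a symbol in each direction, the member of smallest p in each direction of each list, at most 2 without a symbol in each direction, and 3 with the largest variance ratio each way. List members named beside them were chosen after their values were seen. The larvae, lists and rule were chosen with earlier results of these data known. Alternatives tried were DESeq2, limma-voom, DESeq2's size factors in edgeR, no low-count filter, filtering without the groups, the newer and the robust quasi-likelihood forms, the 12 larvae alone, a replicate block, counts thinned to the smallest library, entries not summed, and leaving out each larva.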

Additional observations from a re-analysis of the deposited data

Results flagged for a closer look

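The 128 group values examined were the CPM of the named transcripts, the library measures and principal coordinates 1 and 2, in CH and in HH. Among them, 11 had 1 larva whose distance from the next was over 0.625 of the range of its group of 6. Chance gives such a larva in about 1 in 20 groups. In CH larvae, KCNH8 stood at 23.1 CPM in CH 5 (next 1.59 CPM), LAMB1 at 30.1 CPM in CH 4 (next 20.7 CPM) and NEBU at 1.35 CPM in CH 4 (next 0.753 CPM). SCN8A was lowest in CH 2 at 40.5 CPM (next 49.8 CPM), and TARG1 highest in CH 1 at 33.0 CPM (next 32.2 CPM). The library CH 3 had 22.99% of reads on no feature (next 21.4%) and 7.88% at several sites (next 5.26%). In HH larvae, COAA1 stood at 40.8 CPM in HH 4 (next 7.23 CPM) and SF3B1 mme19222 at 15 CPM in HH 5 (next 9.03 CPM). HH 6 was highest for SYT2 at 50.6 CPM (next 37.4 CPM) and for SCN8A at 81.5 CPM (next 60.8 CPM).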

How the results depend on the processing

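The 3 DETs of HH against CH became 216 with DESeq2, 5 with thinned counts and 0 with the 12 larvae alone (smallest FDR 0.0826), and 0 to 7 when larvae were left out. No transcript passed without CH 1, HH 1, HH 3 or HH 4, and the count was 6 without CH 3 or HH 2, 7 without CH 4 and 5 without HH 5. With limma-voom it was 2. The DETs of HC against CC became 137 with DESeq2 and ranged from 0 to 3 when larvae were left out (1 without CC 1, 3 without CC 5), and the interaction gave 4 with DESeq2. The causes were not tested. The R2 of parental treatment ranged from 0.146 to 0.180 over larvae left out. Replicate numbers did not pair the larvae (correlations of same-numbered CH and HH larvae from -0.188 to 0.113). With a replicate block 0 transcripts passed in HH against CH (smallest FDR 0.101). Parental treatment gave p=0.0313 by exact permutation within blocks, the smallest that test can give. As the blocks do not pair the larvae, no conclusion is drawn from it. Among the 57 named transcripts, 1938 of the values under alternatives kept their direction and side of the threshold, 20 fell below it, 32 came past it, and 1 reversed: ADCY6, which ranged from -0.018 without CH 2 to 0.13 without CH 3. The low-count filter left 2948 genes untested.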

Other observations

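CP1A1, cytochrome P450 1A, an enzyme that oxidises foreign compounds and is switched on by the aryl hydrocarbon receptor, was singled out after its values were seen. Its level was 626 CPM in CH 5, against 14.4 to 55.9 CPM in the other CH larvae and 18.3 to 44.7 CPM in HH larvae, and it averaged 38.6 CPM in HC and 28.8 CPM in CC. CH 5 was also the larva with the high KCNH8 value. MYH4, a fast skeletal myosin heavy chain and an abundant muscle transcript, ranged from 1358 to 4281 CPM in HH larvae and from 1364 to 3269 CPM in CH larvae, so its level varied between larvae of 1 group by more than the groups differed (log2 difference 0.51±0.26, edgeR FDR=0.361).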
